A study of Mus musculus with 8 samples.

Results

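This report describes 33 cell cycle and DNA replication genes in mouse liver, chosen by a named list of replication and mitosis genes among the 40838 gene rows of a count table. All 33 had a row and all passed the filter on low counts, as did 17438 genes in all. By the step they serve, they were taken as 6 regulators of G1 and of entry into S phase, 12 genes of DNA replication and 15 genes of G2 and mitosis.

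Whole liver RNA was sequenced from C57BL/6 mice of 2 groups of 4 libraries. The Lpcat3 group had received an adeno-associated virus (AAV) carrying Lpcat3, which encodes a phospholipid-remodelling acyltransferase, and the eGFP group the same kind of virus carrying a green fluorescent protein. In both, the TBG promoter, active in hepatocytes, drove the transgene. Mice of both groups were kept on a NASH diet (nonalcoholic steatohepatitis) for 7 weeks before the virus and 9 weeks after it, and no group on a normal diet or without virus is part of the comparison. Age and sex are not given in the sources used for this work, nor is it stated that each library came from its own animal, and the p-values therefore describe the spread among these libraries alone.

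Cells enter the cycle when cyclin D and cyclin E kinases release E2F factors, which switch on the genes that license origins, make nucleotides and copy DNA. Later, the DREAM and MuvB complexes with FOXM1 control a second wave of genes that drive chromosome condensation, the spindle and its checkpoint. Adult hepatocytes rarely divide, and many are polyploid because they copied DNA without completing division. In steatohepatitis, macrophages, lymphocytes, duct cells and stellate cells also divide, so a whole-liver level is a sum over cell types.

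Library totals ran from 22433625 to 25651874 counts. The 33 genes together took 0.0171% to 0.0309% of them, or 4034 to 7272 reads per library. Lpcat3 itself was at 274 to 465 CPM (counts scaled to a common library total) in the Lpcat3 libraries and 132.5 to 173 CPM in the eGFP libraries, without overlap. Titles carry code numbers of unstated meaning. The codes 1290 and 1317 mark 1 Lpcat3 and 3 eGFP libraries, and 1344 and 1345 mark 3 Lpcat3 libraries and 1 eGFP library.

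The promoters of 5 members are shown because the replication and mitosis genes differ in the motifs found there. The windows run from 250 bases before to 50 bases after the gene start and come from RefSeq on the build GRCm38.p6, which held 25 of the 33 members, without Ccnd1, Ccnd2, Ccne2, Gmnn, Mcm4, Ccna2, Foxm1 and Aurkb. Capitals mark 3 kinds of motif, searched on both strands. The cell cycle homology region (CHR), bound by MuvB, was searched as TTTGAA and in the variant form TTCGAA. The box bound by NF-Y was searched as CCAAT. The E2F site was searched as TTCCCGC, in a second form as TTGGCGC, and in a further form as TTCGCGC. Bub1b, Cdc20 and Bub1 had the lowest fold changes of the mitosis genes, and Aurka was the only one above 0. Mcm6 is the replication gene whose window held the most E2F matches, and is not typical of its phase. The windows of Mcm2, Pcna, Tyms and Rrm2 held 0.
Bub1b, chr2:118597961-118598260, strand +: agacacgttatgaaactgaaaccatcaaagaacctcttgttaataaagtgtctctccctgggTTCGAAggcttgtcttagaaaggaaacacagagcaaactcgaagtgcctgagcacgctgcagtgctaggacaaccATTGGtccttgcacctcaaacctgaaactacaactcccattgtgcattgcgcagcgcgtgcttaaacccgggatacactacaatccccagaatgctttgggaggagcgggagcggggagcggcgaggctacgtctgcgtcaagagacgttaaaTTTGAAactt
Cdc20, chr4:118437294-118437593, strand -: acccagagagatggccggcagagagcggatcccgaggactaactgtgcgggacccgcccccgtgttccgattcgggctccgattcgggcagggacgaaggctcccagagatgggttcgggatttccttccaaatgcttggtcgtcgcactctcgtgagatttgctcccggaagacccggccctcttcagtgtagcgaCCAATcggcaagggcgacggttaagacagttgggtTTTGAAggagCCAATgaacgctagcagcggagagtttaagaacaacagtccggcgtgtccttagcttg
Bub1, chr2:127831810-127832109, strand -: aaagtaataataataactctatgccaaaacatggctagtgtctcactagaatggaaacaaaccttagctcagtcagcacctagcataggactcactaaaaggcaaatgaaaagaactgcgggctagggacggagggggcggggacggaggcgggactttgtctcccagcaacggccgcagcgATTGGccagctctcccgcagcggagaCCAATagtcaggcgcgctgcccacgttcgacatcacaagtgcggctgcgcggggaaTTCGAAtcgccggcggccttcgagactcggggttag
Aurka, chr2:172370521-172370820, strand -: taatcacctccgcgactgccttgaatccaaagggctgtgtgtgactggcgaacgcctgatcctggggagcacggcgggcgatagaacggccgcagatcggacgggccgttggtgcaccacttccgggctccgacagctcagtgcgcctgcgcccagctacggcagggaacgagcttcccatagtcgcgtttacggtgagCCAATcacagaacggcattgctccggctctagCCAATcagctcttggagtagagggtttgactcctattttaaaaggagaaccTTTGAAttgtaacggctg
Mcm6, chr1:128359656-128359955, strand -: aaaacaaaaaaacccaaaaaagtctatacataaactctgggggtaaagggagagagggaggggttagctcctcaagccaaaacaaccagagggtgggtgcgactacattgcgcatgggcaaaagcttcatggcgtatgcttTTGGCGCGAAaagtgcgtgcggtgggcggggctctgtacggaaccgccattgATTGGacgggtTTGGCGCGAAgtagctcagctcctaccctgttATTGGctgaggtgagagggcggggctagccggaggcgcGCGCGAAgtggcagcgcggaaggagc
Bub1b held 2 CHR matches and 1 CCAAT box, and Cdc20, Bub1 and Aurka each held 1 CHR match and 2 CCAAT boxes. None of these 4 windows held an E2F match (0 each). Mcm6 held 0 CHR matches, 2 CCAAT boxes and 5 E2F matches, among which 2 pairs overlap.

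A CHR match lay in 10 of the 12 mitosis promoters given by the table (83.3%), in 2 of 10 replication promoters and in 19.4% of all 27025 promoters of the same length. E2F matches had another distribution, with 3 of 12 mitosis promoters (25.0%), 6 of 10 replication promoters (60.0%) and 8.2% of all. CCAAT boxes lay in 11 of 12 mitosis promoters and 8 of 10 replication promoters, against 37.9% of all. A match describes the sequence and does not show that a factor binds there.

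**Figure D1:**
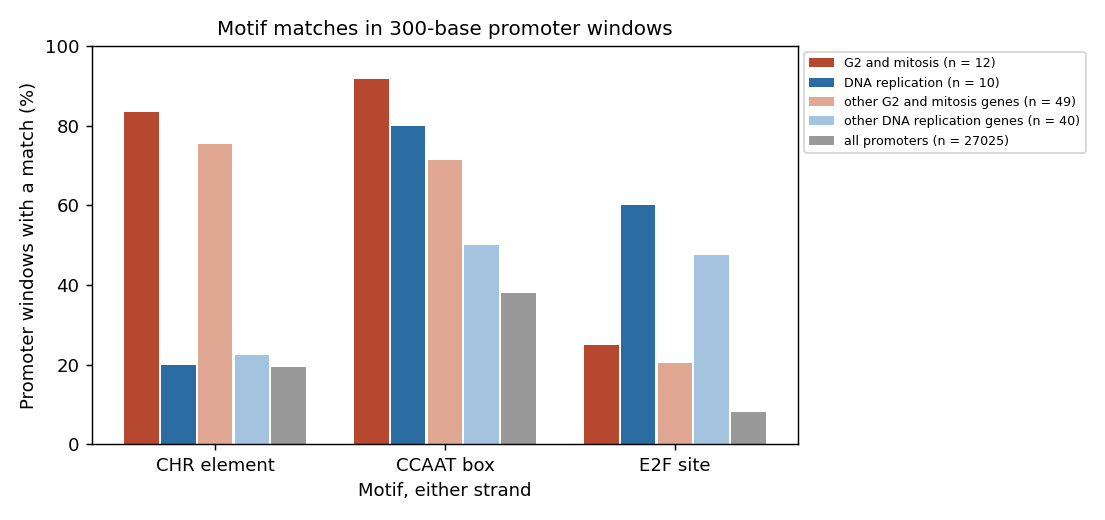
Share of 300-base promoter windows (%) with at least 1 match to each motif on either strand, for member and other cell cycle genes and for all promoters. CHR matches reach 83.3% in the G2 and mitosis members against 2 of 10 in the DNA replication members, and E2F matches reach 60.0% in the DNA replication members against 25.0% in the mitosis members.

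Of the mitosis genes, 14 of 15 had a fitted fold change below 0 in the Lpcat3 livers, whereas the G1 and replication genes lay on both sides of 0, and no difference of a single member passed the test across all genes. The test was edgeR's quasi-likelihood test of Lpcat3 over eGFP libraries, adjusted by Benjamini-Hochberg over all 17438 genes and called at 0.05. By that rule 0 of 33 members were called, where 0.00573% of all genes were (1 gene). Lpcat3, the gene carried by the virus, was not that gene. Its log2 fold change was 1.245 (SE 0.17), and after adjustment its p in this test was 0.164, although its groups did not overlap. The absence of a call therefore does not show that a gene was unchanged. At an unadjusted p under 0.05, 2 members were lower, 6.06% of the 33, beside 5.18% of all genes, and 0 were higher, beside 3.3%. Scaling by library totals alone turned that split over all genes from 575 higher and 903 lower to 218 higher and 1516 lower, and still gave Bub1b and Cdc20 as the only members under 0.05. The same 2 members, Bub1b and Cdc20, were those whose groups did not overlap (6.06%), which was the case for 2.23% of all genes in this direction and 1.93% in the other. With so few members, these shares lie near those of all genes.

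The median log2 fold change, Lpcat3 over eGFP, was -0.04 over the 33 members and -0.0065 over all genes tested. It was 0.03 for the G1 regulators, 0.04 for the replication genes and -0.29 for the mitosis genes. Among the mitosis genes 11 of 15 lay under -0.2, as did 20.6% of all genes, and none of the G1 (0 of 6) or replication members (0 of 12) did. A fold change below 0 was found in 14 of 15 mitosis genes and in 51.5% of all genes. Whether the mitosis genes differed from the replication genes was not tested, and genes of one phase are not independent of each other. In whole tissue, fewer dividing cells and less of these RNAs per cell cannot be told apart.

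**Figure D2:**
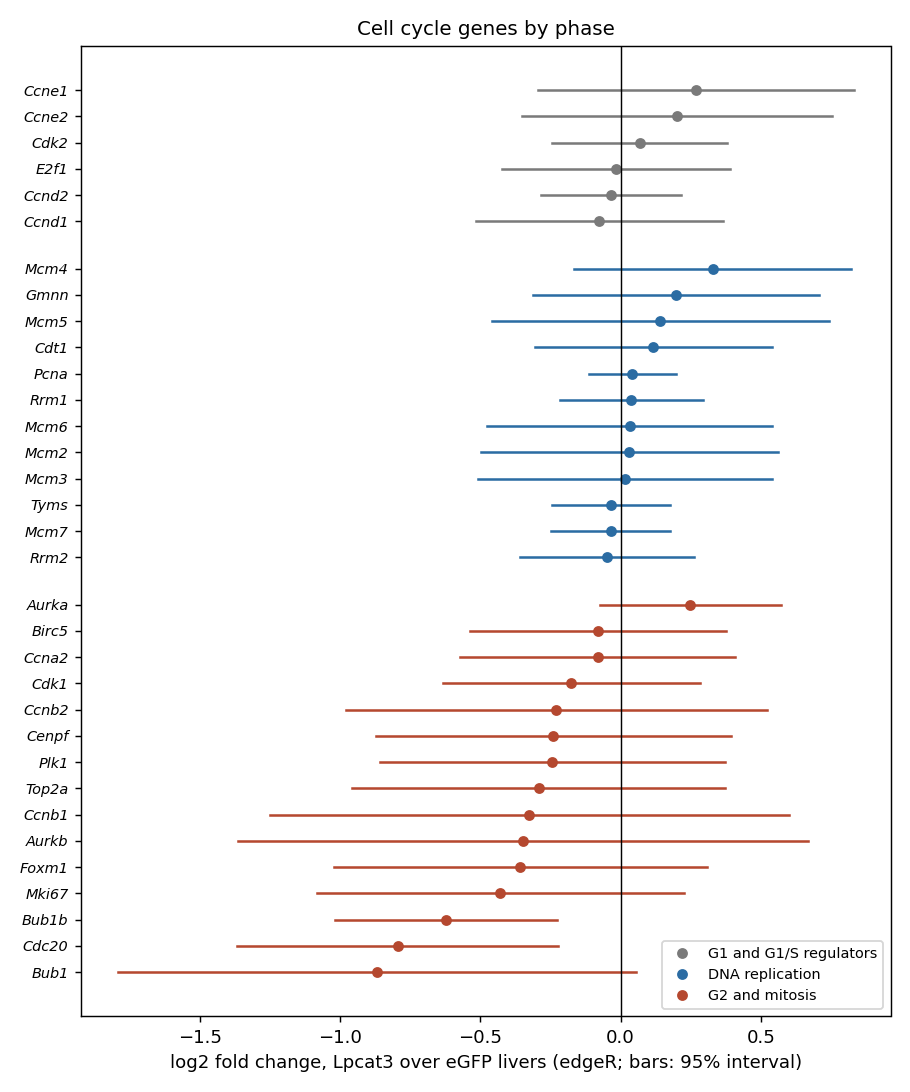
Fitted log2 fold change of each member, Lpcat3 over eGFP livers, with its 95% interval from edgeR, ordered within phase. The intervals of Bub1b (-1.02 to -0.23) and Cdc20 (-1.37 to -0.22) lie below 0, and those of the other 31 members include it.

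Levels differed between the phases. Divided by exon length (GENCODE M21, on GRCm38), Ccnd1, which encodes cyclin D1, stood highest, with 14.1 CPM per kilobase in Lpcat3 livers and 14.9 in eGFP livers, followed by Pcna, the sliding clamp of DNA polymerases, at 11.1 and 10.8. On the same per-length scale the other replication genes lay between 1.12 (Mcm5) and 3.44 (Mcm7) in the Lpcat3 group and between 1.02 and 3.52 in the eGFP group. Most mitosis genes were lower, from 0.153 (Bub1) to 1.87 (Aurka) in the Lpcat3 group and from 0.253 (Cenpf) to 2.12 (Mki67) in the eGFP group. A mitosis gene had a median of 43 reads per library, with 5 at the least, against 171 for a replication gene, so counting error weighs more in the mitosis genes.

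Among the G1 regulators, no member separated the groups. Ccnd1, the mitogen-induced cyclin, was at 59.5, 52.1, 34.0 and 65.1 CPM in Lpcat3 replicates 1 to 4, against 69.6, 51.5, 48.0 and 53.1 CPM in the eGFP replicates. The lowest value was Lpcat3 replicate 3 and the highest eGFP replicate 1, and the groups overlapped (log2 fold change -0.08, SE 0.19; edgeR adjusted p = 0.909). Ccnd1 lay above 0 without Lpcat3 replicate 3 (0.086) and without eGFP replicate 1 (0.054). Ccnd2, a further D cyclin, averaged 26.7 ± 2.32 against 27.3 ± 4.11 CPM (SD, n = 4 each).

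Cyclin E genes had the largest positive fold changes of this phase. Ccne1 was at 1.72, 2.21, 2.25 and 2.46 CPM in the Lpcat3 libraries and 1.22, 1.35, 2.41 and 2.19 CPM in the eGFP libraries (log2 fold change 0.27, SE 0.25; edgeR adjusted p = 0.741). Ccne2 was at 1.98, 3.18, 2.63 and 2.50 CPM against 2.83, 2.08, 1.37 and 2.68 CPM (log2 fold change 0.20, SE 0.25; adjusted p = 0.805). Ccne1 ran from 0.12 without eGFP replicate 1 to 0.45 without eGFP replicate 3, and Ccne2 was at 0.021 without eGFP replicate 3. In both genes the groups overlapped, and the eGFP libraries spread more than the difference between the means. Ccne2, with 461 reads over the 8 libraries, overlaps 2 other expressed genes in the RefSeq table. These are the long noncoding RNA A630034I12Rik (1941 reads; log2 fold change 0.51, SE 0.26) and Ints8 (4535 reads; -0.0035, SE 0.07). How reads of overlapping genes were assigned is not stated, so the Ccne2 value is uncertain. Cdk2, the kinase partner of cyclin E, averaged 9.1 ± 1.57 against 8.68 ± 0.763 CPM, and E2f1, the activating E2F factor, 3.58 ± 0.303 against 3.63 ± 0.816 CPM (SD, n = 4 each).

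None of the 12 DNA replication members separated the groups, with log2 fold changes from -0.05 to 0.33. Pcna, the most highly expressed of them, was measured most tightly. Pcna was at 15.7, 17.7, 17.2 and 16.9 CPM in the Lpcat3 libraries, against 17.0, 16.1, 16.1 and 16.4 CPM in the eGFP libraries. Its log2 fold change was 0.04 (95% interval -0.11 to 0.20; edgeR adjusted p = 0.853), so that the interval holds only small differences. The intervals were wider for Mcm7 (-0.25 to 0.18), a subunit of the MCM helicase, for Tyms (-0.24 to 0.18), which makes thymidylate, and for Rrm1 (-0.22 to 0.29), the large subunit of ribonucleotide reductase. Rrm2, its small subunit, averaged 5.13 ± 0.775 against 5.32 ± 0.496 CPM (SD, n = 4 each).

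Mcm4, another subunit of the helicase that unwinds DNA at the fork, had the largest fold change of the phase. It was at 6.79, 12.9, 10.3 and 11.01 CPM in the Lpcat3 libraries, against 10.1, 6.69, 6.30 and 9.61 CPM in the eGFP libraries. The log2 fold change was 0.33 (SE 0.22; edgeR unadjusted p = 0.168, adjusted p = 0.667), and 3 Lpcat3 libraries lay above every eGFP library while Lpcat3 replicate 1 lay among them. The Mcm4 value was 0.20 without Lpcat3 replicate 2, 0.48 without Lpcat3 replicate 1 (unadjusted p = 0.0318 in edgeR) and 0.041 once the code division entered the fit. Gmnn encodes geminin, which blocks relicensing by binding the licensing factor CDT1. It was at 2.71, 2.78, 3.54 and 3.18 CPM against 3.02, 2.82, 1.56 and 3.26 CPM (log2 fold change 0.20, SE 0.23; adjusted p = 0.792), where eGFP replicate 3 alone was low, and 0.0072 was left of the log2 fold change without it. Cdt1 averaged 2.86 ± 0.624 against 2.64 ± 0.337 CPM (SD, n = 4 each).

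The other helicase subunits varied within groups more than between them. Mcm2, Mcm3, Mcm5 and Mcm6 had log2 fold changes of 0.03, 0.01, 0.14 and 0.03, with SE from 0.23 to 0.27. Their intervals were wide, with that of Mcm5 running from -0.46 to 0.74. Of the 12 replication genes, Lpcat3 replicate 2 was highest in 6, and eGFP replicates 2 and 3 were lowest in 5 and 4. With library totals in place of TMM scaling (trimmed mean of M values), which took the median of all genes to -0.13, the replication and G1 medians were both -0.09, below 0.

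In the mitosis phase, Bub1, Cdc20 and Bub1b had the lowest fold changes, and none passed the adjusted test. Other genes of the spindle checkpoint lay nearer 0, with log2 fold changes of 0.05 for Bub3, -0.13 for Mad2l1 and -0.13 for Ttk. Bub1b, which encodes the checkpoint kinase BUBR1, was at 1.85, 1.90, 1.53 and 1.71 CPM in the Lpcat3 libraries, against 3.41, 2.49, 2.60 and 2.27 CPM in the eGFP libraries. Every Lpcat3 library lay below every eGFP library, by a log2 fold change of -0.62 (SE 0.18; edgeR unadjusted p = 0.00592, adjusted p = 0.564). Within codes 1290 and 1317 the log2 difference of Bub1b was -0.58 and within 1344 and 1345 it was -0.39, each with 1 library on one side.

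Cdc20, the activator of the anaphase-promoting complex that the checkpoint restrains, was at 0.817, 0.618, 0.431 and 0.517 CPM in the Lpcat3 libraries, against 1.18, 0.857, 0.964 and 1.16 CPM in the eGFP libraries. The groups did not overlap, though Lpcat3 replicate 1 and eGFP replicate 2 nearly met (log2 fold change -0.79, SE 0.26; edgeR unadjusted p = 0.0117, adjusted p = 0.564). These values rest on 9 to 30 reads per library. Within codes 1290 and 1317 the log2 difference of Cdc20 was -0.26 and within 1344 and 1345 it was -1.05, each with a single library on one side. Cdc20 overlaps the fatty acid elongase gene Elovl1 in the RefSeq table, which held 5797 reads over the 8 libraries against 160 for Cdc20. How reads of overlapping genes were assigned is not stated, so the Cdc20 value is uncertain. Elovl1 had a log2 fold change of -0.15 (SE 0.10; adjusted p = 0.666).

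Bub1, the kinase that recruits BUBR1 to kinetochores, had the lowest fold change of the 33, on very few reads. It was at 0.86, 0.441, 0.24 and 0.556 CPM in the Lpcat3 libraries, against 1.61, 0.775, 0.667 and 0.825 CPM in the eGFP libraries, which is 5 to 41 reads. Lpcat3 replicate 1 lay inside the eGFP range, and eGFP replicate 1 lay far above all the rest (log2 fold change -0.87, SE 0.41; edgeR unadjusted p = 0.0626, adjusted p = 0.601). Without eGFP replicate 1 the log2 fold change of Bub1 was -0.51.

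The usual proliferation markers overlapped. Mki67, which encodes the chromosome coat protein Ki-67, was at 22.7, 15.1, 9.58 and 16.1 CPM in the Lpcat3 libraries, against 31.8, 19.8, 19.7 and 14.1 CPM in the eGFP libraries (log2 fold change -0.43, SE 0.29; edgeR unadjusted p = 0.172, adjusted p = 0.667). Top2a, the topoisomerase that untangles sister DNA, was at 6.32, 5.74, 2.97 and 5.60 CPM against 9.93, 5.26, 5.60 and 4.50 CPM (log2 fold change -0.29, SE 0.29; adjusted p = 0.764). In both, eGFP replicate 1 was highest, Lpcat3 replicate 3 lowest, and the other 6 libraries interleaved. Without eGFP replicate 1 the fold change of Mki67 was -0.17 and that of Top2a 0.015.

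**Figure D3:**
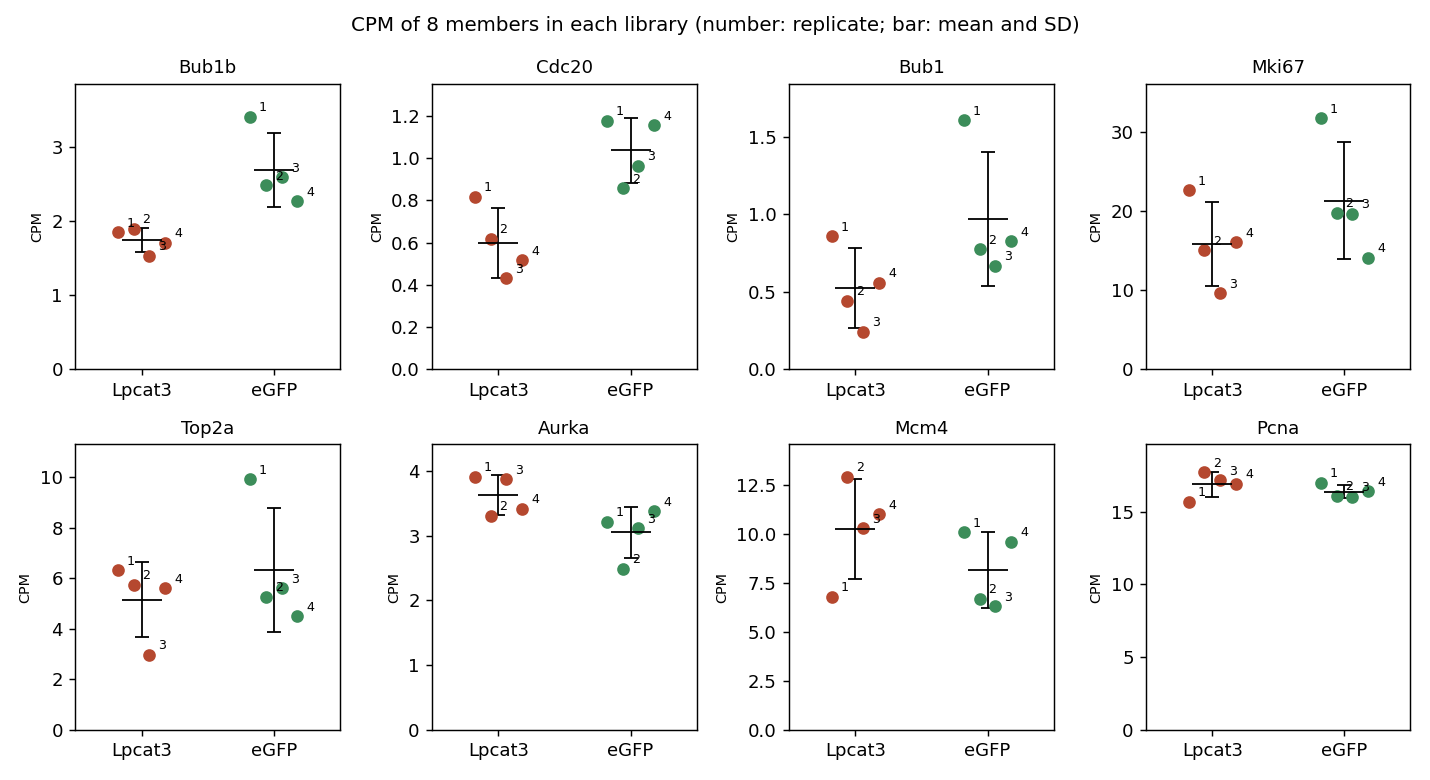
CPM of 8 members in each library, with the replicate number beside each point and the mean and SD as a black bar. Bub1b and Cdc20 separate the groups, while the spread of Bub1, Mki67 and Top2a is set by eGFP replicate 1 at the top and Lpcat3 replicate 3 at the bottom, and Pcna is nearly level.

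The mitotic cyclins and the remaining kinases were also not called. Cdk1, the master kinase of mitosis, averaged 2.12 ± 0.516 CPM in Lpcat3 livers and 2.41 ± 0.263 CPM in eGFP livers, and its cyclins Ccna2, Ccnb1 and Ccnb2 had log2 fold changes of -0.08, -0.33 and -0.23 (edgeR adjusted p = 0.912, 0.812 and 0.835). Foxm1, the transcription factor of this gene wave, averaged 1.37 ± 0.448 against 1.76 ± 0.542 CPM (log2 fold change -0.36, SE 0.30). Plk1, a kinase of the spindle, averaged 0.694 ± 0.101 against 0.825 ± 0.242 CPM, and Aurkb, a kinase of chromosome segregation, 0.634 ± 0.334 against 0.817 ± 0.421 CPM. Birc5, the survivin subunit of the Aurora B complex, averaged 1.55 ± 0.346 against 1.64 ± 0.148 CPM, and Cenpf, a kinetochore protein, 2.38 ± 0.634 against 2.82 ± 1.08 CPM (SD, n = 4 each).

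Aurka, the kinase that matures centrosomes, was the exception. It was at 3.91, 3.31, 3.88 and 3.42 CPM in the Lpcat3 libraries, against 3.22, 2.49, 3.11 and 3.38 CPM in the eGFP libraries. Lpcat3 replicate 2 lay within the eGFP range, and the other 3 lay above it (log2 fold change 0.25, SE 0.14; edgeR unadjusted p = 0.116, adjusted p = 0.641). Aurka overlaps Cstf1 in the RefSeq table, whose log2 fold change was 0.06 (SE 0.08), so its reads carry the same uncertainty as those of Cdc20. Other expressed genes also overlap Ccnd1, Ccne2, Mcm7 and Ccna2. Genes with fewer reads overlap Cdk2 (79 reads over the 8 libraries), E2f1 (50 reads), Ccnd2 (24 reads) and Top2a (3 reads).

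A pair of libraries set much of the mitosis pattern. Of the 15 mitosis genes, eGFP replicate 1 was highest in 12 and Lpcat3 replicate 3 lowest in 10. The summed level of the 15 genes was 52.6, 40.8, 28.6 and 42.3 CPM in the Lpcat3 libraries, against 71.9, 47.7, 46.9 and 38.4 CPM in the eGFP libraries. The sums overlapped, with Lpcat3 replicate 1 above all eGFP libraries but the first. Without eGFP replicate 1 the mitosis median was -0.09 with 10 of 15 members below 0, and without Lpcat3 replicate 3 it was -0.15 with 14 of 15. Without both, the median was 0.02 with 6 of 15 below 0. These libraries were picked after their values were seen, as the extremes of the pattern. Bub1b, at -0.43 without both, and Cdc20, at -0.61, stayed below 0 in every alternative fitted for them. The groups of these genes did not overlap, so leaving out libraries could hardly have turned either sign. The other alternatives reuse the same counts. Bub1, Aurka, Ccne1 and Mcm4 also kept their sign in every alternative fitted for them.

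**Figure D4:**
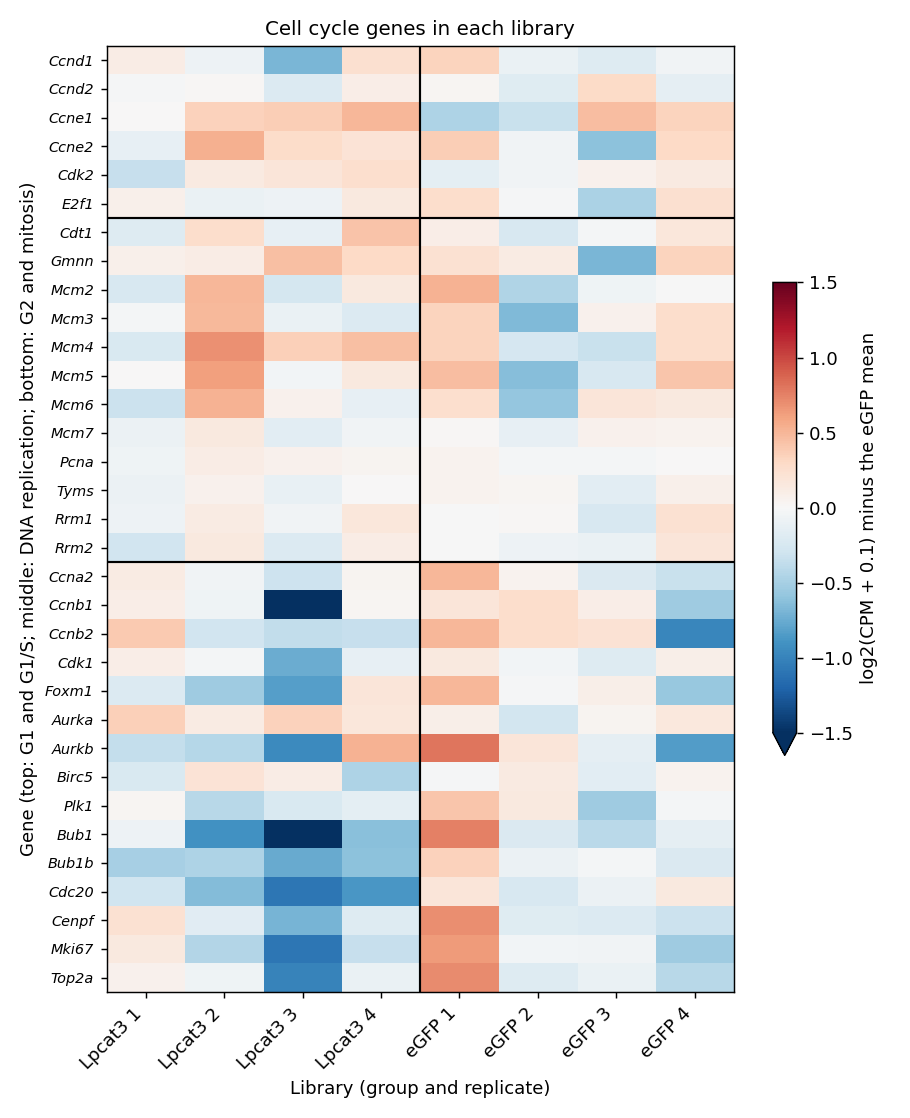
Level of each member (rows) in each library (columns), as log2(CPM + 0.1) minus the eGFP mean, with the 3 phases divided by lines and values under -1.5 drawn in the darkest blue. In the mitosis block, eGFP replicate 1 is highest in 12 of 15 genes and Lpcat3 replicate 3 lowest in 10, while the Bub1b and Cdc20 rows are low in all 4 Lpcat3 libraries.

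Within the codes the mitosis difference was smaller than across them. The mean log2 level of the 15 genes differed by -0.31, Lpcat3 minus eGFP, over all libraries, by -0.11 within codes 1290 and 1317 and by -0.11 within 1344 and 1345. Each division has a single library on one side, and the codes were divided so with the values known. In each division 9 of 15 genes were below 0, and 6 were below 0 in both, namely Ccnb1, Birc5, Bub1, Bub1b, Cdc20 and Mki67. With the code division as a term in the fit, the mitosis median was -0.06 with 10 of 15 members below 0, and the replication median was -0.06 as well. Group and code cannot be fully told apart in 8 libraries so divided.

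Marker lists of other cell types were read in the same libraries, and 0 markers were called after adjustment in any list. Of 16 macrophage and Kupffer cell markers, 15 had a fold change below 0, beside 51.5% of all genes, with a median of -0.58. At an unadjusted p under 0.05 in edgeR, 9 of these 16 were lower, beside 5.18% of all genes. Their summed level was 427 to 563 CPM in the Lpcat3 libraries and 583 to 933 CPM in the eGFP libraries. As with the mitosis genes, eGFP replicate 1 had the highest macrophage sum, whereas the lowest sum was that of Lpcat3 replicate 4, and the lowest mean log2 level that of Lpcat3 replicate 3 (-0.96 relative to the eGFP mean). Neutrophil markers summed to 4.98 to 8.64 CPM against 7.51 to 21.1 CPM, with all 4 of 6 that could be tested below 0, and T and NK cell markers to 6.2 to 8.34 CPM against 5.92 to 16.2 CPM, with 7 of 9 tested below 0. B and plasma cell markers summed to 117 to 148 CPM against 119 to 160.1 CPM, with 7 of 7 tested below 0. A single marker averaged 128.3 CPM over all libraries in the B and plasma cell list and 6.66 CPM in the neutrophil list. Both sums therefore mostly follow 1 gene.

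Endothelial markers summed to 377 to 477 CPM in the Lpcat3 libraries against 475 to 517 CPM in the eGFP libraries, with 8 of 8 below 0. Over all genes, 51.5% lay below 0 and 48.5% above. Stellate cell markers, at 465 to 762 CPM against 615 to 743 CPM, were lowest in Lpcat3 replicate 3, and 6 of 9 lay below 0. Cholangiocyte markers ran the other way in 6 of 7 cases, at 40.2 to 129 CPM against 39.2 to 88.3 CPM. A single marker, at a mean of 63.1 CPM over all libraries, made up most of the cholangiocyte sum. Erythroid markers summed to 383 to 509 CPM against 415 to 644 CPM, with 4 of 6 tested below 0. Hepatocyte markers, at 54850 to 88380 CPM against 44740 to 73540 CPM, lay above 0 in 9 of 10 cases and were highest in Lpcat3 replicate 3, the library lowest in mitosis genes. The most abundant hepatocyte marker averaged 40070 CPM over all libraries. No marker on these lists was at 0 in all libraries (0 of each list). At an unadjusted p under 0.05 in edgeR, 3 of 8 endothelial, 2 of 9 T and NK cell and 1 of 4 neutrophil markers were lower, beside 5.18% of all genes. By the same rule 2 of 7 cholangiocyte and 1 of 10 hepatocyte markers were higher, beside 3.3% of all genes. The B and plasma cell, stellate cell and erythroid lists held 0 in either direction. The part of these cell types in the mitosis result was not tested.

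**Figure D5:**
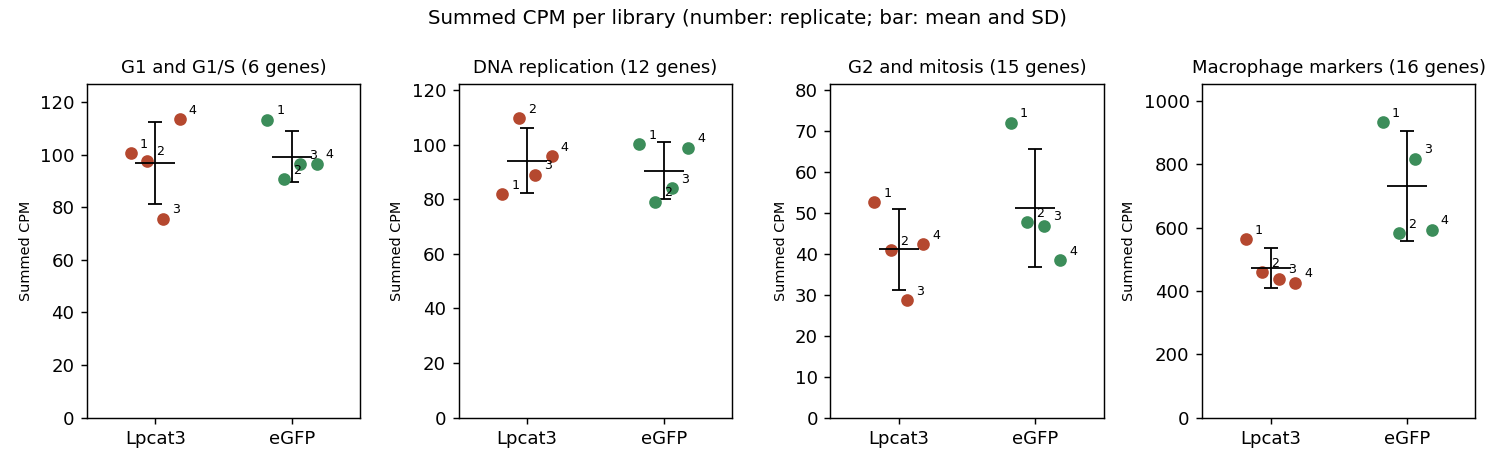
Summed CPM of the members of each phase and of 16 macrophage markers in each library, with the replicate number beside each point and the mean and SD as a black bar. The replication sums (81.9 to 109.7 against 79.1 to 100.2 CPM) and the mitosis sums (28.6 to 52.6 against 38.4 to 71.9 CPM) overlap, and the macrophage sums do not overlap.

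Further genes of each phase came from lists outside the 33 members. Of 58 other genes of G2 and mitosis, 56 could be tested and 41 lay below 0, beside 51.5% of all genes, with a median log2 fold change of -0.20, against -0.0065 over all genes. The libraries that stood apart were the same: eGFP replicate 1 was highest in 35 of the 58 and Lpcat3 replicate 3 lowest in 26. Their mean log2 level differed by -0.19, Lpcat3 minus eGFP, over all libraries, by -0.09 within codes 1290 and 1317 and by -0.11 within 1344 and 1345. At an unadjusted p under 0.05, 3 were lower, a share near the 5.18% of all genes, 0 were higher, and 0 were called after adjustment. Depdc1a, a mitotic regulator, averaged 0.404 ± 0.0584 against 0.818 ± 0.283 CPM (edgeR adjusted p = 0.564), Kif20b, a kinesin of cytokinesis, 2.78 ± 0.546 against 3.85 ± 0.563 CPM (adjusted p = 0.576), and Lmnb1, lamin B1 of the nuclear envelope, 4.01 ± 0.393 against 4.82 ± 0.234 CPM (adjusted p = 0.587; SD, n = 4 each). Depdc1a and Lmnb1 were the 2 of 56 tested whose groups did not overlap, which was the case for 2.23% of all genes in this direction.

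Of 48 other replication genes, 28 lay above 0 and 20 below, with a median of 0.03 and 0 called. Mcm10, which joins the helicase to the polymerases at origins, was at 33.8, 48.1, 39.9 and 30.9 CPM in the Lpcat3 libraries, against 21.1, 19.6, 17.9 and 35.7 CPM in the eGFP libraries. Only eGFP replicate 4 reached into the Lpcat3 range (log2 fold change 0.69, SE 0.23; edgeR unadjusted p = 0.0135, adjusted p = 0.564). Rfc4, a subunit of the clamp loader, averaged 1.53 ± 0.0951 against 1.18 ± 0.11 CPM, and Gins4 of the GINS complex 13.3 ± 2.34 against 10.6 ± 1.63 CPM (SD, n = 4 each; edgeR adjusted p = 0.591 and 0.601). Rfc4 was the only 1 of the 48 whose groups did not overlap, which was the case for 1.93% of all genes in this direction.

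Of 20 other G1 regulators, 11 lay above 0 and 9 below, with a median of 0.03 and 0 called. E2f8, an atypical E2F repressor that in mouse hepatocytes promotes polyploidy, was at 13.8, 21.3, 11.9 and 17.3 CPM in the Lpcat3 libraries, against 14.7, 7.63, 8.19 and 9.12 CPM in the eGFP libraries. Only eGFP replicate 1 reached into the Lpcat3 range (log2 fold change 0.70, SE 0.24; edgeR unadjusted p = 0.0179, adjusted p = 0.565). Rbl1, the pocket protein p107 of the DREAM complex, averaged 5.9 ± 0.89 against 7.51 ± 0.59 CPM without overlap (adjusted p = 0.573), and Cks1b, a small CDK-binding subunit, 1.99 ± 0.272 against 2.63 ± 0.643 CPM (adjusted p = 0.625; SD, n = 4 each).

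Inhibitors and brakes of the cycle lay on both sides of 0. Of 22 listed, 20 could be tested, with 7 above 0 and 13 below, a median of -0.08 and 0 called. Gadd45g, a stress-induced growth arrest gene, was at 3.96, 1.94, 4.93 and 3.42 CPM in the Lpcat3 libraries, against 2.08, 0.694, 1.26 and 1.82 CPM in the eGFP libraries (log2 fold change 1.28, SE 0.36; edgeR unadjusted p = 0.00574, adjusted p = 0.564). Its relative Gadd45a lay the other way, with groups that just failed to overlap, at 1.89, 1.37, 1.53 and 3.38 CPM against 3.65, 3.39, 4.12 and 6.85 CPM (log2 fold change -1.13, SE 0.33; adjusted p = 0.564). Tob1, an antiproliferative gene, averaged 188 ± 32.9 against 134 ± 27.4 CPM, also without overlap (SD, n = 4 each; adjusted p = 0.565).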

How the data were processed

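Whole liver RNA from 8 libraries was compared, 4 Lpcat3 and 4 eGFP. Per the labels' protocols, RNA was extracted with TRIzol, depleted of ribosomal RNA, made into stranded libraries and read from one end on a NovaSeq. The authors deposited raw counts, whole reads per NCBI gene number. The submitters' processing notes name bcl2fastq 2.20, DESeq2 and the build GRCm39, and neither the aligner and counter nor the use of strand is given in the sources used here. RefSeq names (GRCm38.p6) matched 39397 of 40838 rows by gene number, and no gene coordinates were converted between builds. Exon lengths and gene overlaps were read on GRCm38, while the notes on the counts name GRCm39.

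Genes were filtered with filterByExpr (minimum count 10) and fitted with edgeR 4.0.16 (R 4.3.3), TMM scaling, robust quasi-likelihood, group as the only term. P-values are two-sided. CPM use TMM-scaled totals, and log2 levels a prior count of 2. Intervals are 95% from the same fit. Replicates of a group differed by more than sampling noise (chi-square per degree of freedom 17.3 to 107 over gene counts). The steps were tested on simulated data.

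Members and lists were chosen with earlier results of these data known. All members are named. Library values are given for members at an unadjusted p under 0.05, for the 2 smallest p and the highest CPM per phase, and for Mki67 and Top2a. Of each further list, the 3 smallest p with at least 0.5 CPM are named. Bub1, Aurka, Bub3, Mad2l1, Ttk, Elovl1, Cstf1, A630034I12Rik and Ints8 were added after their values were seen. Alternatives were other scalings and filters, DESeq2 1.42.0, limma-voom 3.58.1, left-out libraries, a block for the replicate number, and a term for the code division.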

Additional observations from a re-analysis of the deposited data

Results flagged for a closer look

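Within a group of 4, a library was marked where its gap to the nearest other took up more of the group's range than Dixon's 95% critical value for 4 samples. Chance marks about 1 in 20 groups, and 5 of 66 were marked over the 33 members. Ccnb1 was at 0.287 CPM in Lpcat3 replicate 3, where the next lowest Lpcat3 library was at 1.41 CPM. Ccnb2 was at 2.19 CPM in Lpcat3 replicate 1, where the next highest was at 1.32 CPM. In eGFP replicate 1, Bub1 was at 1.61 CPM, next to 0.825 CPM, and Cenpf at 4.43 CPM, next to 2.37 CPM. Mcm6 was at 4.53 CPM in eGFP replicate 2, where the next lowest eGFP library was at 7.55 CPM.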

How the results depend on the processing

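No member was called after adjustment in any of the 18 alternatives (0 in each). Over all genes, 1 was called, against 3 with library totals, 51 with DESeq2, 0 to 7 on leaving out 1 library, and 0 without a low-count filter, without both libraries numbered 3, with the replicate block and with the code division. Library totals also turned the unadjusted split from 575 higher and 903 lower to 218 and 1516. Members lower at an unadjusted p under 0.05 numbered 1 with at least 1 CPM in 4 libraries (29 members tested) and 1 without Lpcat3 replicate 3 and eGFP replicate 1 together, an alternative chosen after seeing the data, and 2 to 4 on leaving out 1 library. Members higher numbered 0 to 1 there. Mitosis members below 0 numbered 6 without that pair, and 10 to 14 without 1 library, and the mitosis median ran from -0.47 to -0.09 without 1 library.

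Among 12 members followed singly, 11 alternative values changed sign and 203 did not. Ccnd1 did so without the 2 libraries numbered 3 (0.021), with the code division (0.0027) and without the chosen pair (0.21), and ran from -0.19 to 0.086 without 1 library. Without the chosen pair Mki67 was at 0.0055 and Top2a at 0.20, and Top2a ran from -0.42 to 0.015 without 1 library. Ccne2 was at -0.014 with the code division, Pcna at -0.081 with library totals and Gmnn at -0.068 without the libraries numbered 3. The cause was not tested. Bub1b ran from -0.75 to -0.43 over its alternatives (edgeR, DESeq2 and limma adjusted p = 0.253 to 1) and Cdc20 from -0.98 to -0.61 (0.316 to 1). Deviations of libraries with the same replicate number correlated at 0.285, -0.0689, -0.4 and -0.124. Of the same-number pairs, only the libraries numbered 1, which share code 1290, were each other's best match. The correlations show no general pairing by number but cannot settle whether any libraries were paired. Under the replicate block, 0 members were called and the mitosis median was -0.28. Depth limits the mitosis genes with the fewest reads most: their counts per library ran from 5 to 810, with a median of 43.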

Other observations

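The balance of mitosis over replication genes differed between the code numbers of the titles. It was taken per library as the mean log2 level of the 15 mitosis genes minus that of the 12 replication genes, each relative to the eGFP mean, so that scaling between libraries largely cancels. Lpcat3 replicates 1 to 4 were at 0.12, -0.60, -0.75 and -0.32, and eGFP replicates 1 to 4 at 0.24, 0.22, 0.02 and -0.48. The 4 libraries coded 1344 or 1345, which are Lpcat3 replicates 2, 3 and 4 and eGFP replicate 4, all lay below the 4 libraries coded 1290 or 1317. The codes were divided so with the values known, and the part of the codes was not tested.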
